A study of Homo sapiens with 9 samples.

Results

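The WNT ligands, the Frizzled receptors and the genes that relay, limit or answer the WNT signal were examined as 44 genes of the 60664 in the count table. The genes were chosen by name, with earlier results of these data known, and matched to their Ensembl identifiers. By role they were 11 WNT ligands, the 9 Frizzled receptors FZD1 to FZD9 with the co-receptors LRP5 and LRP6, 5 genes of the R-spondin arm, 5 of the β-catenin destruction complex, the 4 TCF/LEF transcription factors, 5 antagonists and 3 further target genes. A low-count filter passed 35 of the 44, and 9 did not reach it (WNT3A, WNT4, WNT5A, WNT6, WNT7B, WNT9A, WNT10A, RSPO3 and SFRP1).

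RNA came from Huh-7 cells, an established human hepatocellular carcinoma line, in 3 genotypes with 3 libraries each. WT cells carried both vault RNA genes named here, 1-1 KO cells lacked vtRNA1-1 and 1-2 KO cells lacked vtRNA1-2. Vault RNAs are short non-coding transcripts of RNA polymerase III, and some of them are found in the vault particle. The 1-2 KO line was made from the WT cells with CRISPR/Cas9 and is a single cell clone. The 1-1 KO line came from the laboratory that provided the WT cells, and whether it is 1 clone is not given in the sources used here. All lines were grown without further treatment in the same serum-containing medium. The comparisons ask which transcripts differ from WT when either vault RNA is missing, and which differ between the knockouts. Each genotype is 1 line, so a difference between lines cannot be told apart from a difference between clones, and the p-values measure the spread between the 3 libraries of a line. The study describes these as biological replicates, and whether they came from separate cultures is not given in the sources used here.

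WNT proteins are lipid-modified secreted ligands that bind a Frizzled receptor together with LRP5 or LRP6. Binding stops a cytoplasmic complex built on AXIN and APC from marking β-catenin for degradation, and the stabilised β-catenin enters the nucleus and acts with TCF/LEF factors on target genes, several of which are feedback inhibitors. In the liver this signal is strongest around the central vein, and its β-catenin branch is one of the pathways most often altered in hepatocellular carcinoma.

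Total counts were between 32384469 and 41782387 per library. VTRNA1-1 had 1 count in WT replicate 1 and 0 counts in the other libraries, and VTRNA1-2 had 0 counts in all 9, so these mRNA libraries check neither deletion. All 12 hepatocyte lineage markers were above 10 CPM in every library, where CPM are counts scaled to the size of each library after TMM adjustment. Their summed level per kilobase (kb) of exons was 3609 to 3786 in WT, 8419 to 8577 in 1-1 KO and 5917 to 6545 in 1-2 KO. ALB and AFP made up 34.9% of this sum in WT, 62.5% in 1-1 KO and 58.9% in 1-2 KO, and the other 10 markers summed to 2406 ± 52.3, 3181 ± 44.5 and 2582 ± 162 CPM per kb. Of 12 markers of blood, endothelial and stromal cells, 4 were above 1 CPM in every library (CD14, COL1A2, LUM and PDGFRB), and the summed level of the 12 was 60.2 to 64.6 CPM per kb in WT, 84.8 to 89.0 in 1-1 KO and 28.0 to 29.9 in 1-2 KO, most of it from LUM. Of the 6 that were tested, 5 rose and 0 fell in 1-1 KO, and in 1-2 KO 4 rose while LUM and PECAM1 fell. Over all tested genes, 32.5% rose and 30.9% fell in 1-1 KO, and 28.2% and 26.2% in 1-2 KO. HBB had 0 counts throughout, CDH5 had 0 in 1-1 KO, and CD3E, VWF and DCN had at most 6 counts in any library. Replicate 1 of 1-2 KO stood apart from its sister libraries: their counts differed with chi-square values of 14.7 and 15.6 per degree of freedom, against 2.04 to 9.63 in the other pairs of libraries of 1 line. Without it, 19 members rose and 6 fell in 1-2 KO. The part of these marker shifts in the results below was not tested.

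Most tested members differed between the lines, as most tested genes did. In 1-1 KO, 20 of the 35 rose and 9 members fell at an adjusted p under 0.05 in edgeR's quasi-likelihood test, where 32.5% of all 17207 tested genes rose and 30.9% fell. In 1-2 KO, 19 members were called higher and 5 lower, where 28.2% of all tested genes rose and 26.2% fell. In the direct comparison 12 members were higher and 11 lower in 1-2 KO than in 1-1 KO, where 33.1% of all genes were higher and 32.2% lower. A log2 fold change of at least 1 in size, with the same test, was seen in 8 members in 1-1 KO, 8 in 1-2 KO and 3 between the knockouts, beside 13.4%, 11.7% and 14.1% of all tested genes. The counts against WT include WNT5B, WNT11 and LEF1, which passed the low-count filter only through knockout libraries. Their calls against WT are therefore not independent of that filter. The median log2 fold change of the members was 0.30 in 1-1 KO and 0.14 in 1-2 KO, against 0.01 and 0.02 over all tested genes. Between the knockouts it was -0.02, against 0.01 over all tested genes. Both knockouts were compared with the same WT libraries, so their values are given side by side and are not independent of each other.

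**Figure D1:**
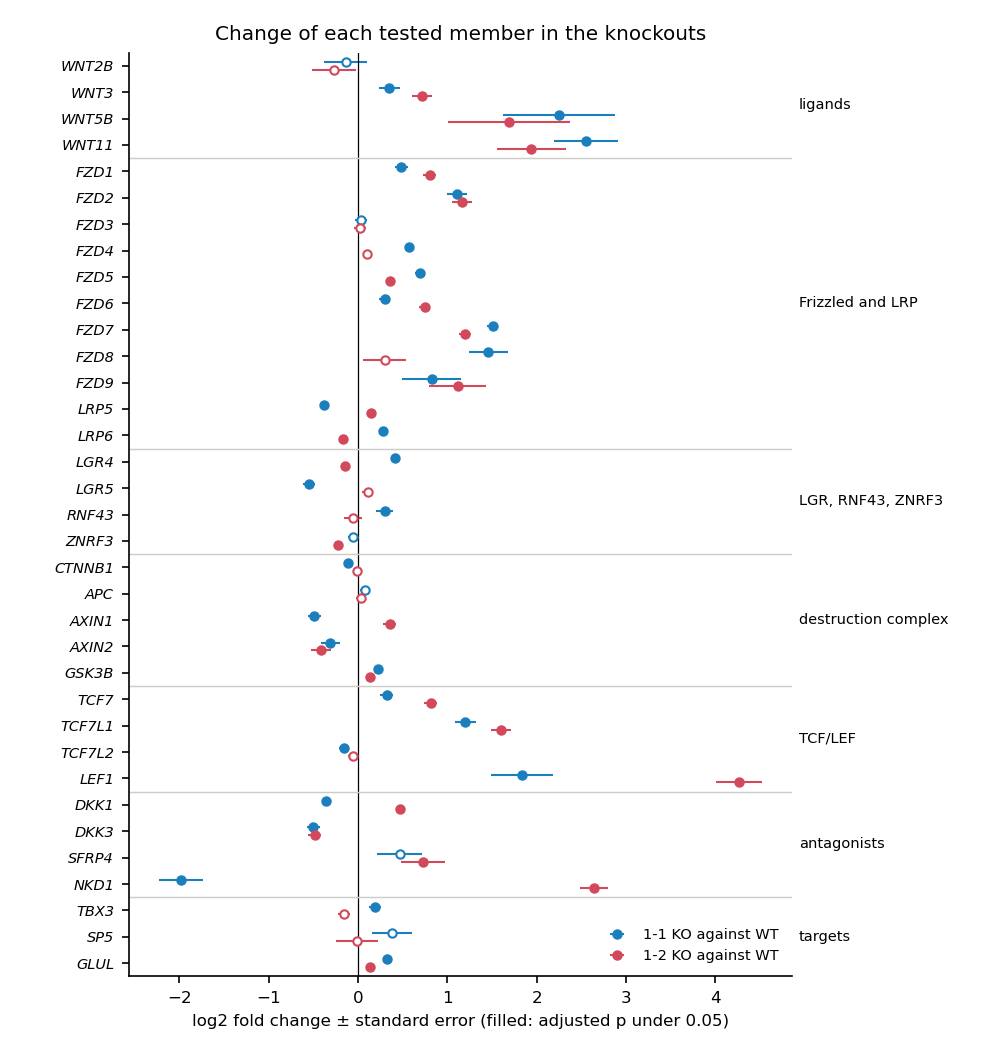
Log2 fold change (x axis) of each of the 35 tested members (y axis, grouped by role) in 1-1 KO (blue) and 1-2 KO (red) against WT. Bars are standard errors and filled points passed an adjusted p under 0.05. The Frizzled receptors lie at or to the right of 0 in both knockouts, and NKD1 lies at -1.98 in 1-1 KO and 2.64 in 1-2 KO.

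In the plot of fold changes, the largest values were those of LEF1, NKD1 and WNT11. The members also differed widely in level. Per kb of exons, the most abundant in WT were CTNNB1 (81.3 ± 1.03 CPM per kb; SD, n = 3 here and below), DKK1 (75.6 ± 4.34) and LRP5 (72.9 ± 4.71). WNT3, the most abundant ligand among the members, stood at 0.466 ± 0.048. Per kb of the longest transcript the same 3 genes came first, at 195.6 for CTNNB1, 93.0 for DKK1 and 87.1 for LRP5.

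The 11 ligands among the members were scarce in all lines. Their summed level was 0.684 ± 0.063 CPM per kb in WT, 1.22 ± 0.05 in 1-1 KO and 1.30 ± 0.12 in 1-2 KO, with no overlap between WT and either knockout. Ligands outside the members are not in this sum, among them WNT10B, which fell in 1-1 KO, and WNT9B, which rose there. WNT3, a ligand of the β-catenin branch, made up 68.2% of the sum in WT, 48.7% in 1-1 KO and 59.1% in 1-2 KO. In bulk RNA, fewer cells expressing a gene and less RNA per cell cannot be told apart, here or for any member below.

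WNT11, best known for signalling without β-catenin (ENSG00000085741, chromosome 11, 76186325 to 76210736), had 0.126, 0.160 and 0.159 CPM in the WT libraries, 1.21, 0.681 and 0.735 in 1-1 KO and 0.712, 0.427 and 0.574 in 1-2 KO. All 6 knockout libraries were above all 3 WT libraries, while those of the knockouts overlapped. Its log2 fold change was 2.55 ± 0.36 (standard error) in 1-1 KO (adjusted p = 2.36e-05) and 1.94 ± 0.39 in 1-2 KO (adjusted p = 0.000684), and its share of the ligand sum was 9.18% in WT, 30.1% in 1-1 KO and 18.5% in 1-2 KO. Between the knockouts the difference was -0.61 ± 0.27 (adjusted p = 0.0575), which passed the threshold when 1-1 KO replicate 2 (-0.76), 1-1 KO replicate 3 (-0.72) or 1-2 KO replicate 1 (-0.80) was left out, and with no filter on low counts (adjusted p = 0.0498).

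WNT5B, also known for β-catenin-independent signalling (ENSG00000111186, chromosome 12, 1529891 to 1647212), was near the limit of detection. It had 0, 3 and 5 counts in WT, 19, 19 and 7 in 1-1 KO and 13, 8 and 9 in 1-2 KO, or 0, 0.0800 and 0.159 CPM, 0.449, 0.462 and 0.172 CPM, and 0.309, 0.201 and 0.225 CPM. The lowest knockout library lay just above the highest WT library. It rose by 2.25 ± 0.63 on the log2 scale in 1-1 KO (adjusted p = 0.00628), and by 1.61 and 3.12 without WT replicate 1 and WT replicate 3. The value in 1-2 KO was 1.69 ± 0.68 (adjusted p = 0.049), and this call was lost without any 1 of the libraries except WT replicate 3 and 1-1 KO replicate 3, the lowest value being 1.06 without WT replicate 1. It was also lost with DESeq2 (adjusted p = 0.0611). With WT replicate 3 left out it was 2.55.

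WNT3 had 2.51 ± 0.26 CPM in WT, 3.21 ± 0.27 in 1-1 KO and 4.12 ± 0.23 in 1-2 KO. It rose in both knockouts, with log2 fold changes of 0.35 ± 0.12 (adjusted p = 0.0185) and 0.72 ± 0.12 (adjusted p = 0.000118), and it was higher in 1-2 KO than in 1-1 KO by 0.36 ± 0.11 (adjusted p = 0.0101). The call in 1-1 KO was lost without 1-1 KO replicate 2 (0.29) or WT replicate 2 (0.26). It was also lost with DESeq2 (adjusted p = 0.0775) and in edgeR with no filter on low counts (adjusted p = 0.0501). The call between the knockouts was lost without 1-1 KO replicate 1 (0.30). WNT2B, at 0.762 ± 0.205 CPM in WT, passed in no comparison (log2 fold changes of -0.14 and -0.27), and 21.5% of its exon length overlaps ST7L on the opposite strand. The other 7 ligands were not tested. WNT5A had 1, 0 and 0 counts in WT, 2, 3 and 6 in 1-1 KO and 6, 4 and 7 in 1-2 KO, and WNT9A 2, 2 and 1, then 2, 4 and 4, then 5, 7 and 8. WNT10A had 3, 5 and 3 counts in WT and up to 17 in 1-2 KO, and WNT3A, WNT4, WNT6 and WNT7B had at most 5 in any library. In WT, 3 counts correspond to 0.0754 to 0.0951 CPM, so lower levels could not be resolved.

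The Frizzled receptors, the membrane proteins that bind the ligands, rose in most cases. In 1-1 KO, 8 of the 9 (88.9%, beside 32.5% of all tested genes) were called higher and 0 lower, with a median log2 fold change of 0.69. In 1-2 KO, 6 (66.7%, beside 28.2% of all tested genes) were called higher and 0 lower, with a median of 0.74. Their summed level was 49.0 ± 2.15 CPM per kb in WT, 80.2 ± 0.28 in 1-1 KO and 66.7 ± 3.09 in 1-2 KO. The libraries of the 3 lines did not overlap in this sum, with 46.8 to 51.1 in WT, 79.9 to 80.5 in 1-1 KO and 63.3 to 69.4 in 1-2 KO.

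FZD7, a receptor often linked to stem cells and to liver cancer (ENSG00000155760, chromosome 2, 202033855 to 202038441), had 11.7, 12.0 and 13.3 CPM in WT, 33.7, 35.4 and 36.2 in 1-1 KO and 28.6, 29.5 and 26.7 in 1-2 KO. Every library of the lines lay apart. It rose 2.85-fold in 1-1 KO (log2 fold change 1.51 ± 0.06, adjusted p = 1.05e-10) and 2.29-fold in 1-2 KO (1.20 ± 0.06, adjusted p = 1.43e-09), and its share of the Frizzled sum was 5.49% in WT, 9.52% in 1-1 KO and 9.24% in 1-2 KO. The 50 tested genes nearest to it on the chromosome had a median log2 fold change of 0.51 in 1-1 KO and 0.01 in 1-2 KO. Between the knockouts FZD7 was lower in 1-2 KO by 0.31 on the log2 scale (-0.31 ± 0.06, adjusted p = 0.000306), where its neighbours had a median of -0.48.

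FZD2 (ENSG00000180340, chromosome 17, 44557484 to 44561262) had 2.74, 2.29 and 3.23 CPM in WT, 6.03, 5.76 and 5.91 in 1-1 KO and 6.29, 6.15 and 6.04 in 1-2 KO. All knockout libraries were well above WT. The log2 fold changes were 1.11 ± 0.11 (adjusted p = 8.62e-07) and 1.17 ± 0.11 (adjusted p = 6.59e-07), and the difference between the knockouts was 0.06 ± 0.10 (adjusted p = 0.602).

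FZD8 (ENSG00000177283, chromosome 10, 35638247 to 35642296) had 1.58, 2.05 and 2.35 CPM in WT, 5.34, 5.20 and 5.78 in 1-1 KO and 3.61, 1.93 and 1.72 in 1-2 KO. The 1-1 KO libraries lay above all others, while 1 of the 1-2 KO libraries stood above WT and the other two lay among the WT values. It rose by 1.46 ± 0.22 in 1-1 KO (adjusted p = 4.52e-05) and was lower in 1-2 KO than in 1-1 KO by 1.16 on the log2 scale (-1.16 ± 0.21, adjusted p = 0.000213). In 1-2 KO the log2 fold change was 0.30 ± 0.24 (adjusted p = 0.311), and -0.11 without replicate 1, the library that stood apart overall.

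FZD9 (ENSG00000188763, chromosome 7, 73433778 to 73436120) had 0.327, 0.400 and 0.634 CPM in WT, 1.04, 0.851 and 0.466 in 1-1 KO and 1.19, 0.829 and 0.873 in 1-2 KO. The 1-2 KO libraries lay above WT, whereas those of 1-1 KO overlapped it. The log2 fold change of 1.12 ± 0.32 in 1-2 KO passed (adjusted p = 0.00842). That of 0.83 ± 0.33 in 1-1 KO was just past the threshold (adjusted p = 0.0404), and the call was lost without WT replicate 1 (0.63), WT replicate 2 (0.75), 1-1 KO replicate 1 (0.57) or 1-1 KO replicate 2 (0.77), and with DESeq2 (adjusted p = 0.071).

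FZD5, the most abundant Frizzled receptor, made up 66.2% of the sum per kb in WT, 65.2% in 1-1 KO and 62.5% in 1-2 KO. It rose from 228 ± 13 CPM in WT to 368 ± 0.62 in 1-1 KO and 293 ± 17 in 1-2 KO, with log2 fold changes of 0.69 ± 0.05 (adjusted p = 1.61e-08) and 0.36 ± 0.05 (adjusted p = 1.47e-05). FZD4, the next by share, rose in 1-1 KO from 49.7 ± 0.97 to 73.9 ± 0.32 CPM (0.57 ± 0.04, adjusted p = 3.85e-08). In 1-2 KO it stood at 53.4 ± 2.99 CPM (0.10 ± 0.04, adjusted p = 0.0558), a value that passed without replicate 1 of that line (0.14), and 18.9% of its exon length overlaps PRSS23 on the opposite strand. FZD1 rose by 0.49 in 1-1 KO and 0.80 in 1-2 KO, and FZD6 by 0.30 and 0.74, and both were higher in 1-2 KO than in 1-1 KO (by 0.31 and 0.45 on the log2 scale, adjusted p = 0.00175 and 1.05e-05). FZD3 was the single Frizzled gene that passed in no comparison, with 15.4 ± 0.84 CPM in WT, 15.8 ± 0.79 in 1-1 KO and 15.7 ± 0.72 in 1-2 KO.

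The co-receptors moved in opposite directions within each knockout. LRP5 fell in 1-1 KO from 451 ± 29 to 346 ± 8.0 CPM (-0.38 ± 0.05, adjusted p = 5.86e-06) and rose in 1-2 KO to 498 ± 20 CPM (0.14 ± 0.05, adjusted p = 0.0181), where the libraries overlapped WT and the call was lost without WT replicate 1 (0.13) or WT replicate 2 (0.10). LRP6 rose in 1-1 KO from 159 ± 5.1 to 193 ± 2.9 CPM (0.28 ± 0.04, adjusted p = 9.46e-06) and fell in 1-2 KO to 142 ± 3.5 CPM (-0.16 ± 0.04, adjusted p = 0.00135). The genes around LRP6 had a median of 0.27 in 1-1 KO and -0.08 in 1-2 KO.

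**Figure D2:**
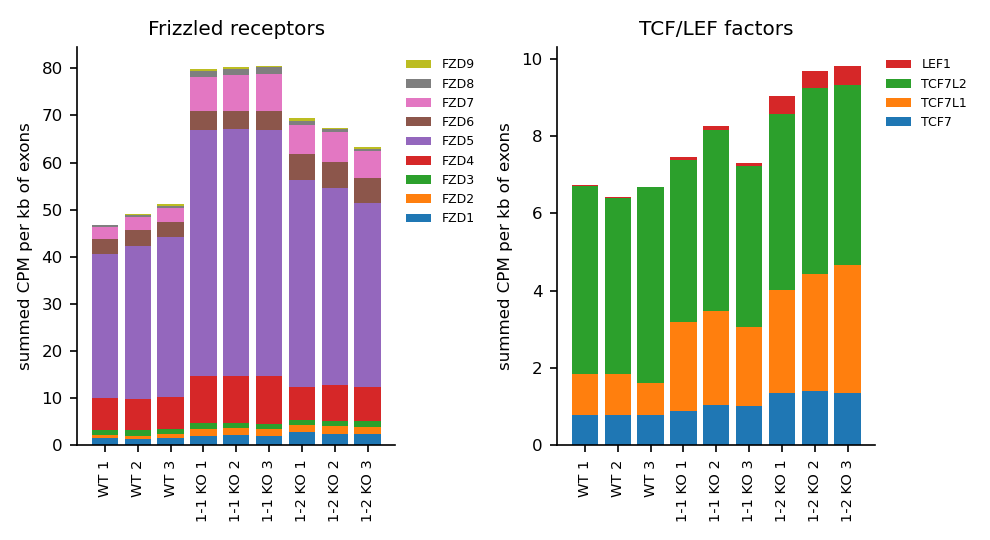
Summed level of the 9 Frizzled receptors (left) and the 4 TCF/LEF factors (right) in each of the 9 libraries (x axis), in CPM per kb of exons (y axis), with 1 colour per gene. The Frizzled sum is highest in 1-1 KO, at 79.9 to 80.5, and the TCF/LEF sum highest in 1-2 KO, at 9.03 to 9.81.

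The R-spondin arm sets how many Frizzled receptors stay at the surface: R-spondins bind LGR receptors and hold off the ubiquitin ligases RNF43 and ZNRF3. The ligand RSPO3 had at most 1 count in any library. LGR5, a stem cell marker and itself a WNT target (ENSG00000139292, chromosome 12, 71439798 to 71586310), had 26.7, 25.4 and 22.0 CPM in WT, 17.4, 17.0 and 16.5 in 1-1 KO and 26.0, 27.0 and 27.0 in 1-2 KO. The 1-1 KO libraries lay below all others and those of 1-2 KO among or just above WT. LGR5 fell in 1-1 KO (-0.55 ± 0.07, adjusted p = 6.2e-06) and was 1.57-fold higher in 1-2 KO than in 1-1 KO (0.65 ± 0.07, adjusted p = 8.01e-07), while the value in 1-2 KO against WT was 0.11 ± 0.07 (adjusted p = 0.18), which passed with library size alone (0.16).

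LGR4, the more abundant LGR receptor, went the other way, from 289.7 ± 5.95 to 385 ± 5.34 CPM in 1-1 KO (0.41 ± 0.03, adjusted p = 1.24e-07) and to 263 ± 7.64 CPM in 1-2 KO (-0.14 ± 0.03, adjusted p = 0.00318). RNF43 rose in 1-1 KO from 7.42 ± 0.37 to 9.12 ± 0.81 CPM (0.30 ± 0.10, adjusted p = 0.0163). That call was lost without 1-1 KO replicate 2 (0.23) or WT replicate 2 (0.26), and 68.4% of the exon length of RNF43 is shared with a read-through gene that had at most 8 counts. ZNRF3 fell in 1-2 KO from 37.9 ± 1.6 to 32.4 ± 1.5 CPM (-0.22 ± 0.05, adjusted p = 0.00167), and in 1-1 KO it stood at 36.3 ± 0.73 CPM (-0.06 ± 0.05, adjusted p = 0.31). Of the 4 tested genes of this arm, 2 were called higher and 1 lower in 1-1 KO, and 0 higher and 2 lower in 1-2 KO. Between the knockouts 3 were lower and 1 was higher in 1-2 KO. The shares over all tested genes were 32.5% higher and 30.9% lower in 1-1 KO, and 28.2% and 26.2% in 1-2 KO. Between the knockouts they were 33.1% higher and 32.2% lower.

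Of the 5 genes of β-catenin and its destruction complex, 1 was called higher and 3 lower in 1-1 KO, and 2 higher and 1 lower in 1-2 KO. The shares over all tested genes were 32.5% higher and 30.9% lower in 1-1 KO, and 28.2% and 26.2% in 1-2 KO. CTNNB1, which encodes β-catenin (ENSG00000168036, chromosome 3, 41194741 to 41260096), had 944, 955 and 969 CPM in WT, 885, 901 and 878 in 1-1 KO and 906, 969 and 967 in 1-2 KO. The 1-1 KO libraries lay just below all the others. The difference of 1-1 KO from WT was -0.11 ± 0.04 (adjusted p = 0.0174) and was lost with scaling by library size alone (-0.06) and without 1-1 KO replicate 1 (-0.10) or replicate 3 (-0.10). In 1-2 KO it was -0.01 ± 0.04 (adjusted p = 0.774). Between the knockouts the difference of 0.09 ± 0.04 (adjusted p = 0.0326) was lost without any 1 of the libraries except WT replicate 1, WT replicate 2 and 1-2 KO replicate 1, with values of 0.07 to 0.10.

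AXIN2, a scaffold of the destruction complex whose transcription is widely read as a sign of β-catenin activity (ENSG00000168646, chromosome 17, 65528563 to 65561648), had 4.60, 4.56 and 3.77 CPM in WT, 3.57, 3.14 and 3.77 in 1-1 KO and 3.28, 3.19 and 3.27 in 1-2 KO. The 1-2 KO libraries lay below WT, and 1 library of 1-1 KO lay at the level of the lowest of WT. Of the exon length of AXIN2, 25.3% is shared with another protein-coding gene on the same strand, which had 0 counts in every library. AXIN2 fell in 1-2 KO (-0.41 ± 0.11, adjusted p = 0.00615). The value in 1-1 KO was -0.31 ± 0.11 (adjusted p = 0.0255), and the call was lost with DESeq2 (adjusted p = 0.0696), with library size alone and without WT replicate 1 (-0.26), WT replicate 2 (-0.27), 1-1 KO replicate 1 (-0.32) or 1-1 KO replicate 2 (-0.24).

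AXIN1, the related scaffold, differed in direction between the knockouts. It fell in 1-1 KO from 29.8 ± 3.4 to 21.2 ± 0.69 CPM (-0.49 ± 0.07, adjusted p = 4.79e-05) and rose in 1-2 KO to 38.0 ± 1.9 CPM (0.36 ± 0.07, adjusted p = 0.000738), where its neighbours had a median of 0.30. The kinase GSK3B rose slightly in both, from 106 ± 1.5 to 124 ± 2.1 CPM in 1-1 KO (0.22, adjusted p = 2.79e-05) and 116 ± 1.5 CPM in 1-2 KO (0.13, adjusted p = 0.00319). In 1-1 KO the neighbours of GSK3B had a median of 0.35. APC, the scaffold mutated in colorectal cancer, passed in no comparison, at 51.2 ± 2.8 CPM in WT, 54.0 ± 1.4 in 1-1 KO and 52.4 ± 3.0 in 1-2 KO.

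Among the TCF/LEF factors, the DNA-binding partners of β-catenin, both the sum and the share of each gene differed between the lines. The sum was 6.62 ± 0.17 CPM per kb in WT, 7.67 ± 0.51 in 1-1 KO and 9.51 ± 0.42 in 1-2 KO. TCF7L2 made up 73.0% of it in WT, 56.6% in 1-1 KO and 49.1% in 1-2 KO. The share of TCF7L1 was 14.8%, 29.5% and 31.5%, that of TCF7 11.8%, 12.7% and 14.5%, and that of LEF1 0.347%, 1.13% and 4.96%.

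LEF1, low or absent in adult hepatocytes (ENSG00000138795, chromosome 4, 108047545 to 108168956), showed the largest rise of any member against WT. It had 8, 4 and 2 counts in WT, 18, 23 and 17 in 1-1 KO and 107, 93 and 108 in 1-2 KO, or 0.201, 0.107 and 0.0634 CPM, 0.425, 0.559 and 0.417 CPM, and 2.54, 2.34 and 2.70 CPM. The 3 lines did not overlap, and 1-2 KO was highest. It rose 3.57-fold in 1-1 KO (1.84 ± 0.35, adjusted p = 0.000338) and 19.2-fold in 1-2 KO (4.26 ± 0.26, adjusted p = 5.6e-09), and was higher in 1-2 KO than in 1-1 KO by 2.43 ± 0.19 (adjusted p = 6.1e-08). With so few counts in WT the size of these folds is uncertain: leaving out 1 library at a time gave 1.57 to 2.38 in 1-1 KO and 3.98 to 4.81 in 1-2 KO. The neighbours of LEF1 had a median of 0.40 in 1-1 KO and -0.05 in 1-2 KO.

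TCF7L1, often a repressor of WNT targets (ENSG00000152284, chromosome 2, 85133392 to 85310387), had 4.75, 4.69 and 3.58 CPM in WT, 10.2, 10.8 and 9.12 in 1-1 KO and 11.8, 13.4 and 14.7 in 1-2 KO. Every 1-2 KO library was above every 1-1 KO library, and these above WT. The log2 fold changes were 1.20 ± 0.12 in 1-1 KO (adjusted p = 6.28e-07), 1.60 ± 0.12 in 1-2 KO (adjusted p = 3.53e-08) and 0.40 ± 0.10 between the knockouts (adjusted p = 0.0036).

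TCF7 rose in the same order, from 7.87 ± 0.08 CPM in WT to 9.83 ± 0.80 in 1-1 KO (0.32, adjusted p = 0.00177) and 13.9 ± 0.29 in 1-2 KO (0.82, adjusted p = 3.53e-07). TCF7L2, the main factor of the liver (ENSG00000148737, chromosome 10, 112950247 to 113167678), had 32.7, 30.8 and 34.2 CPM in WT, 28.2, 31.6 and 28.0 in 1-1 KO and 30.7, 32.4 and 31.2 in 1-2 KO. The libraries of all lines overlapped. The difference of 1-1 KO from WT was -0.15 ± 0.06 (adjusted p = 0.0314), close to the median of -0.19 of its neighbours, and the call was lost with library size alone (-0.10) and without WT replicate 1 (-0.15), WT replicate 3 (-0.12), 1-1 KO replicate 1 (-0.13) or 1-1 KO replicate 3 (-0.12). In 1-2 KO it was -0.05 ± 0.06 (adjusted p = 0.482).

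Of the 4 tested antagonists, 0 were called higher and 3 lower in 1-1 KO, and 3 higher and 1 lower in 1-2 KO. Over all tested genes, 32.5% were called higher and 30.9% lower in 1-1 KO, and 28.2% and 26.2% in 1-2 KO. NKD1, a cytoplasmic feedback inhibitor that binds Dishevelled and is switched on by the pathway (ENSG00000140807, chromosome 16, 50548396 to 50649249), had 1.31, 1.28 and 1.14 CPM in WT, 0.284, 0.195 and 0.466 in 1-1 KO and 7.26, 7.28 and 8.91 in 1-2 KO. The 3 lines were far apart, with 1-1 KO lowest and 1-2 KO highest. NKD1 fell 3.94-fold in 1-1 KO (-1.98 ± 0.25, adjusted p = 8.09e-06) and rose 6.25-fold in 1-2 KO (2.64 ± 0.16, adjusted p = 4.57e-09). Between the knockouts it differed 24.7-fold (4.62 ± 0.19, adjusted p = 6.76e-11), the largest difference of any member in any of the 3 comparisons, and its neighbours had medians of -0.15, 0.07 and 0.25 in the same comparisons.

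DKK1, a secreted inhibitor that takes LRP co-receptors away from the ligand, also differed in direction. It fell in 1-1 KO from 168 ± 9.6 to 131 ± 2.4 CPM (-0.36 ± 0.04, adjusted p = 3.56e-06) and rose in 1-2 KO to 232 ± 4.7 CPM (0.47 ± 0.04, adjusted p = 3.22e-07). The DKK1 libraries of the 3 lines did not overlap. DKK3, a divergent member of that family, fell in both, from 15.2 ± 0.73 to 10.7 ± 0.30 CPM (-0.50, adjusted p = 3.97e-05) and 10.9 ± 0.99 CPM (-0.48, adjusted p = 7.48e-05). DKK3 shares 47.5% of its exon length with USP47 on the opposite strand, and whether the counting used strand is not given in the sources used here. SFRP4, a decoy that resembles the Frizzled ligand-binding domain, rose from 0.603, 0.853 and 1.33 CPM in WT to 1.71, 1.26 and 1.55 CPM in 1-2 KO (0.73 ± 0.24, adjusted p = 0.0215), with libraries that overlapped WT and a call that was lost without WT replicate 1 (0.48), WT replicate 2 (0.68) or 1-2 KO replicate 1 (0.63). In 1-1 KO the value for SFRP4 was 0.47 ± 0.25 (adjusted p = 0.12), and it passed without WT replicate 3 (0.79). SFRP1 had at most 3 counts in any library.

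**Figure D3:**
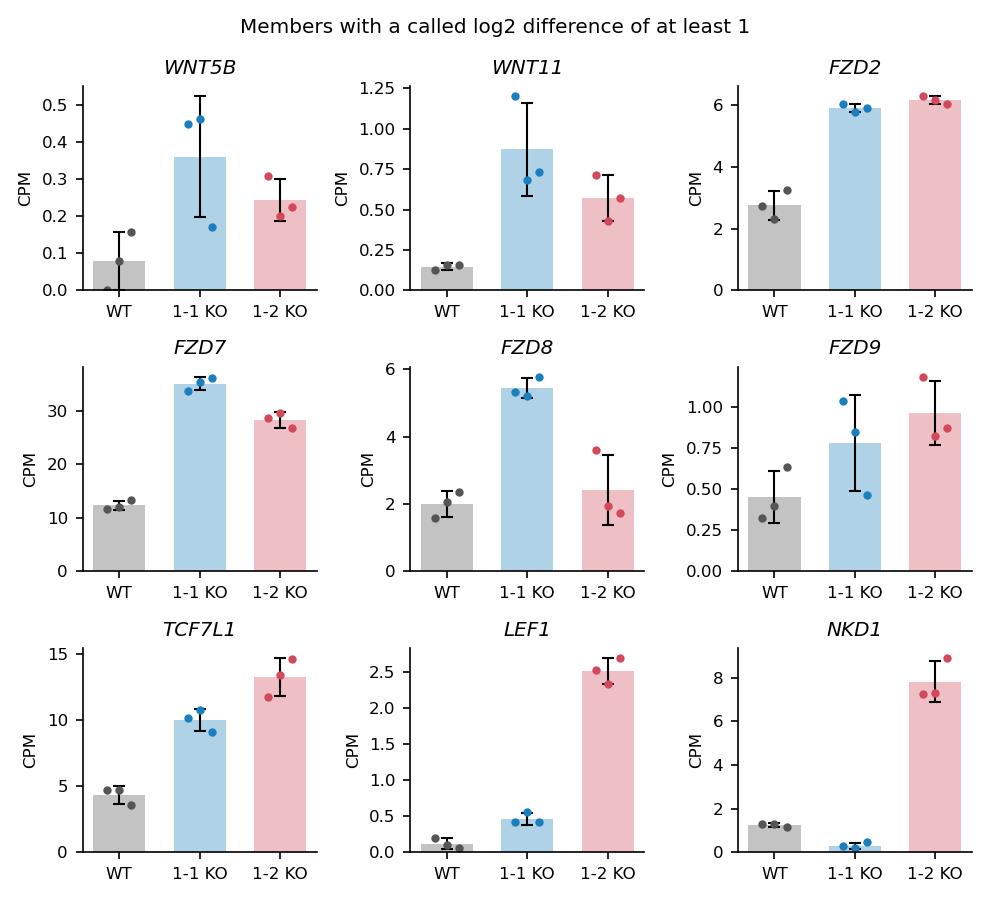
Level in CPM (y axis, from 0) of the 9 members with a called log2 difference of at least 1 in any comparison, for the 3 lines. Bars are means, error bars SD over 3 libraries and points single libraries. FZD2 and FZD7 stand above WT in both knockouts, FZD8 in 1-1 KO, LEF1 most in 1-2 KO, and NKD1 lies below WT in 1-1 KO and above it in 1-2 KO.

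Among the 3 further target genes, the changes were small. GLUL, glutamine synthetase, the best known perivenous target of β-catenin in the liver (ENSG00000135821, chromosome 1, 182378098 to 182392206), had 297, 283 and 287 CPM in WT, 358, 375 and 354 in 1-1 KO and 305, 313 and 334 in 1-2 KO. The 1-1 KO libraries were highest and the 1-2 KO libraries lay between. It rose by 0.33 ± 0.04 in 1-1 KO (adjusted p = 7.03e-06) and by 0.13 ± 0.04 in 1-2 KO (adjusted p = 0.0124), and the latter call was lost without WT replicate 2 (0.12) or 1-2 KO replicate 3 (0.10). The neighbours of GLUL had a median of 0.16 in 1-2 KO.

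TBX3, a transcription factor regulated by β-catenin in liver tumours, rose in 1-1 KO from 20.6 ± 1.3 to 23.5 ± 1.4 CPM (0.19 ± 0.07, adjusted p = 0.0203), a call that was lost without WT replicate 2 (0.14), 1-1 KO replicate 1 (0.15) or 1-1 KO replicate 3 (0.18). In 1-2 KO it stood at 18.5 ± 0.97 CPM (-0.15 ± 0.07, adjusted p = 0.0675), which passed without WT replicate 2 (-0.20) or 1-2 KO replicate 1 (-0.19), and it was lower there than in 1-1 KO (-0.34 ± 0.07, adjusted p = 0.000352). SP5, a zinc finger factor induced by WNT, passed in no comparison, at 1.51 ± 0.37 CPM in WT, 1.95 ± 0.45 in 1-1 KO and 1.48 ± 0.37 in 1-2 KO. The values for SP5 passed without 1-1 KO replicate 1 against WT (0.56), and between the knockouts without 1-1 KO replicate 1 (-0.57) or 1-2 KO replicate 1 (-0.62).

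The promoters bear on the same question of which members carry letters that TCF/LEF factors bind. RefSeq windows of 250 bases before to 50 bases after the start site (GRCh38.p14) were at hand for 30 of the 44 members, with 39 windows in all. AXIN2, LGR5, NKD1, TBX3, ZNRF3, FZD2, FZD3, FZD6, FZD7, LRP6, DKK3, SFRP1, WNT7B and WNT11 had no window. Their promoters were not searched. The 39 windows were searched on both strands for CTTTGAT, 1 form of the core letters of the TCF/LEF motif. Other forms were not searched and are not marked. Of the 39 windows 1 held CTTTGAT (2.56%), that of SP5, against 919 of the 35116 windows of all genes (2.62%). The window of SP5 is shown because it holds these letters, in capitals, starting 109 bases before the start site (plus strand, chr2:170715087-170715386). That of LEF1 is shown because this gene rose most against WT (minus strand, chr4:108166252-108166551, no match). The LEF1 window lies inside the annotated span of the gene, so the stretch before the annotated start of the gene was not searched. Whether CTTTGAT in a window had a part in any change was not tested. A match is a description of the letters, and no match says only that they are not in the window searched.
SP5: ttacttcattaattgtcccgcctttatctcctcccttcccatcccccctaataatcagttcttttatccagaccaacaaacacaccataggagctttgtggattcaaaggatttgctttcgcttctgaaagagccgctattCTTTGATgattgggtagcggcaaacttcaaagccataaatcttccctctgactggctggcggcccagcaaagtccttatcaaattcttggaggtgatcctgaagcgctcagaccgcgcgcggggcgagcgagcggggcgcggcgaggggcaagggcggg
LEF1: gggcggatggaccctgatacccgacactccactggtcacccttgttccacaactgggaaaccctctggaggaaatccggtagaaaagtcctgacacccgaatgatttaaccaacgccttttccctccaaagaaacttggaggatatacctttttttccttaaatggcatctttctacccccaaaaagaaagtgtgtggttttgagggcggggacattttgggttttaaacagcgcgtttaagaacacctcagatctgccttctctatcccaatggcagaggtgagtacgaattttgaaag

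Some members lay among genes that differed from WT in the same direction, which the plot against neighbours sets beside each member. With the neighbour median subtracted, FZD7 kept a difference of 1.00 in 1-1 KO and 1.19 in 1-2 KO, LEF1 one of 1.43 and 4.32, and NKD1 one of -1.83 and 2.57. For LRP6 in 1-1 KO the remainder was 0.01, and for FZD6 in 1-1 KO it was -0.05, so that these genes differed from WT about as much as the genes around them. FZD5 in 1-1 KO had neighbours with a median of 0.42 and a remainder of 0.27.

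A further 79 genes of the pathway, outside the 44, came from lists chosen with earlier results of these data known. Of them, 60 were tested. In 1-1 KO 26 of these (43.3%) were called higher and 19 (31.7%) lower, beside 32.5% and 30.9% of all tested genes, with a median of 0.06. In 1-2 KO 31 (51.7%) were called higher and 6 (10.0%) lower, beside 28.2% and 26.2%, with a median of 0.17. Among 13 other secreted or membrane antagonists, 7 were tested, and 6 rose in 1-1 KO and 5 in 1-2 KO, with 0 falling in either. The calls of DKKL1 and WIF1 in 1-2 KO were lost with DESeq2 (adjusted p = 0.0932 and 0.135). They were also lost when some single libraries were left out. FRZB, not called in 1-2 KO, passed without 1-2 KO replicate 3 (0.99). KREMEN2, a partner of DKK1 at the surface, rose from 0.526 ± 0.045 CPM in WT to 1.69 ± 0.15 in 1-1 KO (1.68, adjusted p = 3.55e-06) and 3.32 ± 0.56 in 1-2 KO (2.66, adjusted p = 1.74e-08). SOSTDC1, a secreted inhibitor, rose in 1-1 KO by 1.83 (adjusted p = 5.68e-07) and stood at -0.02 in 1-2 KO (adjusted p = 0.939).

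Of 5 genes of WNT secretion and processing, 1 was called higher and 3 lower in 1-1 KO, and 1 higher and 0 lower in 1-2 KO. The shares over all tested genes were 32.5% higher and 30.9% lower in 1-1 KO, and 28.2% and 26.2% in 1-2 KO. WLS, the carrier that brings WNT ligands to the surface, had 17.1, 19.0 and 16.6 CPM in WT, 2.43, 2.26 and 2.65 in 1-1 KO and 18.0, 21.6 and 20.1 in 1-2 KO. All 1-1 KO libraries were far below the others. It fell 7.18-fold in 1-1 KO (-2.84 ± 0.10, adjusted p = 1.38e-11), and the value in 1-2 KO was 0.18 ± 0.08 (adjusted p = 0.0667), which passed without WT replicate 2 (0.24) or 1-2 KO replicate 1 (0.25) and with library size alone (0.23). WNT10B, a ligand outside the 44, fell in 1-1 KO from 2.29 ± 0.21 to 1.19 ± 0.11 CPM (-0.94, adjusted p = 5.04e-05) and stood at 2.43 ± 0.22 CPM in 1-2 KO.

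In the cytoplasm, DACT2, which binds Dishevelled, rose from 0.978 ± 0.184 CPM to 4.32 ± 0.24 in 1-1 KO (2.15, adjusted p = 2.44e-08) and 5.76 ± 0.74 in 1-2 KO (2.57, adjusted p = 3.88e-09). Of the nuclear co-factors, the co-repressor TLE2 rose by 2.40 in 1-1 KO and 1.29 in 1-2 KO (adjusted p = 3.63e-09 and 6.26e-06), and the co-activator PYGO1 by 0.93 and 2.11 (adjusted p = 0.000369 and 6.59e-08). In the planar polarity branch, the cadherin CELSR3 rose by 2.68 and 1.44 (adjusted p = 4.21e-11 and 6.33e-08). DAAM2, a formin that binds Dishevelled, had a log2 fold change of -1.13 in 1-1 KO (adjusted p = 0.00073) and rose by 2.09 in 1-2 KO (adjusted p = 1.33e-07). The same pair of directions was called for NKD1, LRP5, AXIN1 and DKK1 and for other pathway genes.

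A list of 21 genes commonly called β-catenin targets, 8 of them members, held genes called in both directions. Of 19 tested, 9 (47.4%) were called higher and 5 (26.3%) lower in 1-1 KO, beside 32.5% and 30.9% of all tested genes. In 1-2 KO 10 (52.6%) were called higher and 4 (21.1%) lower, beside 28.2% and 26.2%. EPHB2, a receptor tyrosine kinase of the crypt, had at most 3 counts in any WT library. Its level in 1-1 KO, 0.993 ± 0.290 CPM, was at least 11.9-fold higher than 3 counts per WT library, and that in 1-2 KO, 4.88 ± 0.46 CPM, at least 58.4-fold higher. Both differences were called (adjusted p = 4.28e-07 and 3.42e-10), but EPHB2 passed the low-count filter only through knockout libraries.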

How the data were processed

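Stranded mRNA libraries were made from 3 Huh-7 lines. Per the labels and the study's methods, the authors used STAR on GRCh38 and featureCounts, and the deposited values are raw counts per gene; strand setting, multi-mapping and whether reads or fragments were counted are not given in the sources used here. Symbols, positions and exon lengths came from GENCODE 44, which held 60463 of the 60664 identifiers. Counts were analysed with edgeR 4.0.16 in R 4.3.3: filterByExpr (minimum count 10, total 15), TMM, 1 fit over 9 libraries with a term per line, quasi-likelihood tests, and Benjamini-Hochberg adjustment over 17207 genes with a threshold of 0.05. Standard errors were the size of the log2 fold change over the square root of F. Levels are CPM, per kb of the union of exons where genes are compared. Neighbours were 25 tested genes on each side. Depth was 32384469 to 41782387 counts, and values at or under 3 counts were treated as a floor. Steps were tested on simulated data.

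The members and gene lists were chosen with earlier results of these data known. Members given by library were those called with a log2 fold change of at least 1 in size in any comparison, with AXIN2, LGR5, GLUL, CTNNB1, LEF1 and TCF7L2. Outside the members, the gene named from each list was the called gene with the largest change per knockout among those with a mean of at least 1 CPM. Genes named for 0 or few counts were chosen after their values were seen. Alternatives were DESeq2 1.42.0, its size factors in edgeR, library size alone, other filters, fitting only the 2 lines compared, the replicate number as a block, an adjusted p under 0.01, subtracting neighbours, transcript length and leaving out each library.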

Additional observations from a re-analysis of the deposited data

How the results depend on the processing

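Across the alternatives, members called higher numbered 16 to 21 in 1-1 KO, 15 to 21 in 1-2 KO and 10 to 12 in 1-2 KO against 1-1 KO, and members called lower 6 to 9, 5 to 6 and 9 to 13. At the 0.05 threshold, 18 of the 29 calls in 1-1 KO, 17 of the 24 in 1-2 KO and 17 of the 23 between the knockouts were tested and made under all 16 alternative fits. A minimum of 10 counts in every library left WNT5B, WNT11, LEF1 and NKD1 untested, and fitting only the 2 lines compared left WNT5B untested against WT. Those lost under at least 1 alternative were AXIN2, CTNNB1, FZD9, RNF43, TBX3, TCF7L2 and WNT3 in 1-1 KO, GLUL, LRP5, SFRP4 and WNT5B in 1-2 KO, and CTNNB1, GSK3B, WNT3 and ZNRF3 between the knockouts. Among the 14 members given by library, some signs turned. With the neighbour median subtracted, FZD7 between the knockouts became 0.17, CTNNB1 between the knockouts -0.0154, TCF7L2 in 1-1 KO 0.0343 and GLUL in 1-2 KO -0.0247. With library size alone, which moved the median of all genes to 0.06 in 1-1 KO and 0.07 in 1-2 KO, CTNNB1 in 1-2 KO became 0.0416 and TCF7L2 in 1-2 KO 0.00435. Leaving out each library gave -0.11 to 0.49 for FZD8 in 1-2 KO and -0.0295 to 0.0182 for CTNNB1 in 1-2 KO, both turning without 1-2 KO replicate 1 (-0.11 and 0.0182). The causes were not tested. Libraries with the same replicate number did not deviate together (correlations of -0.19 to 0.05), so the numbers pair nothing. Between lines, libraries with different numbers had correlations of -0.14 to 0.24, the highest between WT replicate 3 and 1-2 KO replicate 1. What these libraries shared was not tested. A replicate block gave 19 higher and 9 lower members in 1-1 KO, 18 and 5 in 1-2 KO, and 12 and 12 between the knockouts. With the block, FZD9 in 1-1 KO (adjusted p = 0.0560) and WNT5B in 1-2 KO (0.0714) did not pass, and WNT11 between the knockouts did (0.0399). Per kb of the longest transcript, 23 of 42 levels moved by more than 1 SD, the 42 being the 14 members given by library in each line. On that scale FZD5 made up 65.8% of the Frizzled sum in WT, TCF7L2 72.9% of the TCF/LEF sum and WNT3 72.9% of the ligand sum. With 4 tested members under 10 counts in some library (WNT5B, WNT11, LEF1 and NKD1), depth limits how well the size of their fold changes is known.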

Other observations

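Of 12 genes known from the periportal zone of the liver, where the WNT signal is weak, 7 were tested, and 4 rose and 1 fell in 1-1 KO (median log2 fold change 0.67), while 1 rose and 5 fell in 1-2 KO (median -0.83). Between the knockouts 1 was higher and 6 were lower in 1-2 KO. Over all tested genes, 32.5% rose and 30.9% fell in 1-1 KO, 28.2% and 26.2% in 1-2 KO, and 33.1% were higher and 32.2% lower between the knockouts. HAL, histidine ammonia-lyase, had 10.0, 11.0 and 10.7 CPM in WT, 16.8, 17.6 and 16.1 in 1-1 KO and 3.11, 3.01 and 2.92 in 1-2 KO, and the lines did not overlap. In edgeR's quasi-likelihood test it rose by 0.67 ± 0.07 in 1-1 KO (adjusted p = 8.13e-07) and fell by 1.81 in 1-2 KO (adjusted p = 2e-10). ASS1, an enzyme of the urea cycle, rose in both, from 11.0 ± 1.2 CPM to 19.6 ± 0.41 (adjusted p = 7.33e-07) and 28.0 ± 2.6 (adjusted p = 5.65e-09).

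Of 12 perivenous genes, 5 of them members, 9 were tested, and 5 rose and 2 fell in 1-1 KO, while 2 rose and 2 fell in 1-2 KO, or 22.2% each. Between the knockouts 3 were higher and 5 lower in 1-2 KO. These counts, and those of the cell markers below, stand beside the shares over all tested genes given above. RHBG, an ammonium transporter of perivenous hepatocytes, rose in 1-2 KO from 1.20 ± 0.08 to 2.34 ± 0.04 CPM (0.96 ± 0.15, adjusted p = 6.87e-05) and stood at 1.29 ± 0.21 CPM in 1-1 KO (adjusted p = 0.587). AFP, the fetal liver protein used as a tumour marker, was 4.64-fold higher than WT in 1-1 KO and 4.22-fold higher than WT in 1-2 KO (adjusted p = 5.93e-14 and 1.08e-13). Of the 6 tested markers of other cell types, 5 were called higher and 0 lower in 1-1 KO, and 4 higher and 2 lower in 1-2 KO (median 0.69). COL1A2 rose by 1.73 in 1-1 KO and 0.98 in 1-2 KO (adjusted p = 3.98e-11 and 2.11e-08), and PECAM1 fell 9.02-fold in 1-2 KO (adjusted p = 5.05e-11).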
